A study of Mus musculus with 12 samples.

Results

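The 5 genes Gas5, Snhg1, Snhg3, Snhg8 and Snhg12 are non-coding hosts of small nucleolar RNAs (snoRNAs), and they were chosen by name, as the rows of the count table that carry these symbols. Of the 5, Gas5, Snhg3 and Snhg12 have a row among the 22618 genes of the table. Snhg1 and Snhg8 were not found by symbol, older symbol or identifier, so their host rows are not analysed here. Rows for snoRNAs that lie inside all 5 hosts do exist: 24 of the 26 snoRNA genes that GENCODE M21 places there have one.

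Total RNA came from livers of male C57BL/6j mice lacking both Cry1 and Cry2, the cryptochrome genes, which encode repressors of the circadian clock. All mice carried this double knockout, were 12 to 16 weeks old, had a conventional gut flora and were fed at night. Livers were taken at zeitgeber time (ZT) 2, 6, 10, 14, 18 and 22 h, as 2 libraries each, 12 together, and all comparisons are among these times, in mutant liver alone. ZT12 is by convention the start of darkness, and night here means the last 3 sampling times, ZT14 to ZT22, with day for the rest; wild-type libraries were not analysed here. The labels do not state whether each library is a separate animal, and p-values therefore reflect the spread among the libraries, which may be technical.

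A snoRNA host gene is transcribed into a long precursor whose introns hold snoRNAs. After splicing, the introns are trimmed to mature snoRNAs, which bind a set of core proteins and guide chemical modification or cleavage of ribosomal RNA, while the joined exons form a host RNA with no long open reading frame. Gas5 was named for its accumulation in growth-arrested cells; its spliced RNA begins with a pyrimidine tract (a 5′ terminal oligopyrimidine, or TOP, start) and is turned over through translation-dependent nonsense-mediated decay. In normal mouse liver, ribosome production follows feeding over the day, and snoRNAs serve that production.

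The hosts lie on 4 mouse chromosomes (GRCm38), and 3 of them start beside or overlap another gene. Gas5 (ENSMUSG00000053332) is at chr1:161034422-161038539 on the plus strand and holds 10 annotated snoRNA genes. The minus-strand gene Zbtb37 starts 427 bases inside it. Snhg1 (ENSMUSG00000108414), at chr19:8723475-8726443 on the plus strand, holds 8 snoRNA genes and starts 106 bases from Slc3a2, which runs the other way. Snhg3 (ENSMUSG00000085241) is at chr4:132348014-132353686 on the minus strand, with 2 snoRNA genes, and lies on the same strand as Rcc1, with which it shares 135 exon bases. Snhg8 (ENSMUSG00000104960), at chr3:123507552-123508404 on the minus strand, holds 1. Snhg12 (ENSMUSG00000086290), at chr4:132308623-132311024 on the plus strand, holds 5.

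The start regions of the hosts are shown because the pyrimidine tract at the start defines TOP transcripts. The sequences run from 50 bases before to 50 bases after the RefSeq start (GRCm38.p6), 5′ to 3′ on the gene's strand; for Gas5, which has 2 RefSeq starts, the downstream one is shown. Capitals mark the longest run of C or T within 10 bases of the start and, where present on the gene's strand, TATAAA or TATATA.
Gas5: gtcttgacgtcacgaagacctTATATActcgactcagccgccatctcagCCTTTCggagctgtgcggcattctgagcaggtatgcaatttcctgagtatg
Snhg1: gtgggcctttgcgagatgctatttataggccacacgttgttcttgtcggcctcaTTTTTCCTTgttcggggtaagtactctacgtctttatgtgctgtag
Snhg3: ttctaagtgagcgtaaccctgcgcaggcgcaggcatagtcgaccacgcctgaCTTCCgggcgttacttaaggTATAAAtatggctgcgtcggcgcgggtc
Snhg8: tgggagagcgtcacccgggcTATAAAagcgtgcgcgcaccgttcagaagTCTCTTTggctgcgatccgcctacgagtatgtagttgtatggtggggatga
Snhg12: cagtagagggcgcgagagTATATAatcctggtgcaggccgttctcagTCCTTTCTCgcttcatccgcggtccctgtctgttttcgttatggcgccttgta
These windows lie at chr1:161035116-161035215, chr19:8723437-8723536, chr4:132353637-132353736, chr3:123508287-123508386 and chr4:132308628-132308727.

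A run of at least 6 C or T bases near the start was present in 4 of the 6 RefSeq starts of the hosts, in 30% of 32851 mouse promoters and in 54.4% of promoters of cytosolic ribosomal proteins, the classical TOP genes. The run was 9 bases long in Snhg12 and in Snhg1, a length reached by 9.75% of promoters, 7 bases in Snhg8 and 6 at the Gas5 start shown. The Snhg1 run lay after the start, at positions 5 to 13, while those of Snhg12, Snhg8 and Gas5 spanned it. At the other Gas5 start the run was 3 bases, which 83.9% of promoters reach. In Snhg3 it was 5 bases, which 45.9% of promoters reach. The letters TATAAA or TATATA, on either strand of the 300 bases from 250 before to 50 after the start, were found at 5 of the 6 starts and in 17.1% of all promoters. They lay 29, 30 and 32 bases before the start in Gas5, Snhg8 and Snhg12, after the start in Snhg3, and only on the opposite strand in Snhg1. The E-box CACGTG, the canonical CLOCK:BMAL1 site, was not among the letters of any of the 6 windows and occurs in 7.15% of promoters; its variant CACGTT was found in Snhg1 (4.68% of promoters). The palindrome TGACGTCA, the full cyclic-AMP response element, was found 46 bases before the Gas5 start and in 1.79% of promoters. All motifs were searched on both strands, and a match describes letters only.

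The 2 snoRNAs of Snhg3 are shown because their rows together had nearly as many counts as the host row and because they differ by few bases. Snora73a and Snora73b are H/ACA-type snoRNAs of the U17 (E1) family, which act in the processing of the small-subunit ribosomal RNA rather than as guides. Capitals mark the 7 of 205 bases at which they differ (96.6% identical; GENCODE M21, minus strand, chr4:132352775-132352979 and chr4:132352322-132352526).
Snora73a: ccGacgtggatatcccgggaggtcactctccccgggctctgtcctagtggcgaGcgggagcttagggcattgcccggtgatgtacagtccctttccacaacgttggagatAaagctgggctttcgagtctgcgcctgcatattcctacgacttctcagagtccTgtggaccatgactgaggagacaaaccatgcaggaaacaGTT
Snora73b: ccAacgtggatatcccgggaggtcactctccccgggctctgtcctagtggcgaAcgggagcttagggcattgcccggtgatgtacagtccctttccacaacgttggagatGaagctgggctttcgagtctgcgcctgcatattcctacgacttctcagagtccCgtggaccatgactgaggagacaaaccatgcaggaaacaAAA
The next 3 sequences are box C/D snoRNAs, the class that guides 2′-O-methylation, shown because their rows passed the 24 h test below. Capitals mark the box C letters TGATGA and the last CTGA, the box D letters.
SNORD81: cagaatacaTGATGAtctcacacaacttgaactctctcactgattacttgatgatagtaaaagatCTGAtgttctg
Snord47: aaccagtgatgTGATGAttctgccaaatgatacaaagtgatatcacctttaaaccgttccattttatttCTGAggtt
SNORD30: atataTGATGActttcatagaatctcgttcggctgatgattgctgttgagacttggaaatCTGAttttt
SNORD81 (chr1:161038308-161038383) and Snord47 (chr1:161038082-161038158) lie in Gas5, and SNORD30 (chr19:8725341-8725409) in Snhg1, all on the plus strand.

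Library totals were between 34715506 and 46074052 counts, and 17142 genes were tested. Levels are in CPM, the share of a library's counts in parts per 1000000, after TMM correction for its composition. In log2 CPM centred per gene over 9876 genes, ZT02 replicate 1 resembled ZT06 replicate 1 (r = 0.47) more than its own partner (r = 0.21), and ZT02 replicate 2 resembled ZT06 replicate 2 (r = 0.59), while the libraries of ZT06 correlated at 0.16. Fits without these libraries are therefore given where they change the 24 h call of a named gene. The summed level of 6 hepatocyte markers was 77100 to 110100 CPM. Pancreatic acinar markers summed to 23.1 CPM in ZT14 replicate 2 and to at most 3.01 CPM in the 8 libraries outside ZT10 and ZT14. In bulk tissue, fewer cells of a type and less RNA per cell cannot be told apart.

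Per kilobase of annotated exon, Snhg3 was the most abundant host row, at 231 CPM per kb (lowest library 182, highest 298). Gas5 followed at 14.6 CPM per kb (12.0 to 18.2), and Snhg12 was lowest at 4.32 (3.03 to 5.50). The 12 values of one host did not overlap those of another. However, the snoRNA rows inside Snhg3 had 84.8% to 91.0% as many counts as its host row. The exon length used for Snhg3 holds 77.6% of Snora73a and none of Snora73b. The order per kb therefore describes count rows, not spliced host RNAs. In CPM without length, the means were 228 ± 34.6 for Snhg3, 54.9 ± 8.29 for Gas5 and 10.4 ± 1.70 for Snhg12 (SD, n = 12).

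Gas5 had a single broad maximum around the change from day to night. At ZT10 its level was 62.4 and 68.0 CPM and at ZT14 61.1 and 68.5 CPM. At ZT02 it was 47.7 and 49.4 CPM, at ZT06 47.7 and 57.2, at ZT18 49.5 and 45.0, and at ZT22 53.2 and 48.9. All 4 libraries of ZT10 and ZT14 were above all 8 others, a separation chosen after the values were seen and shown by 520 of 17142 genes (3.03%). Means of ZT10 (65.2 ± 3.92 CPM, SD, n = 2) and ZT14 (64.8 ± 5.25) did not differ beyond their spread, nor did neighbours in the order ZT06 (52.5 ± 6.75), ZT22 (51.1 ± 3.00), ZT02 (48.6 ± 1.16) and ZT18 (47.3 ± 3.17). Fitted with a cosine of 24 h period, peak exceeded trough by 1.37-fold (95% interval 1.13 to 1.65), and the peak was at ZT 11.4 ± 1.01 h (SE).

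**Figure D1:**
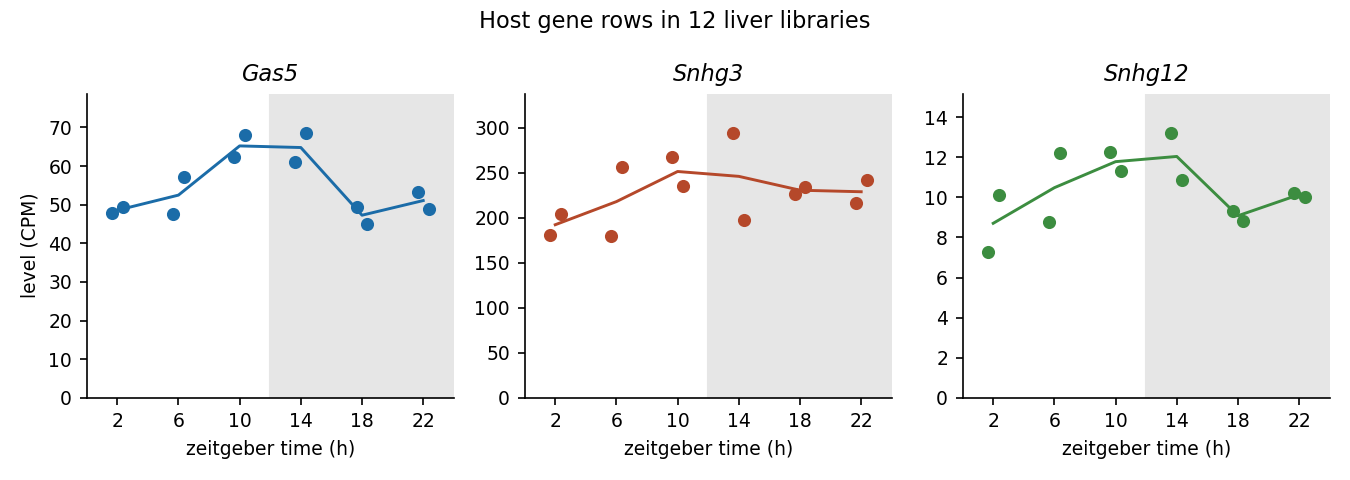
Levels of the 3 host rows in CPM (y axis, starting at 0) against zeitgeber time in hours (x axis); each point is 1 library, the line joins the means of 2 libraries and grey marks the conventional dark phase. Gas5 is at 61.1 to 68.5 CPM in the 4 libraries of ZT10 and ZT14 and at 45.0 to 57.2 in the other 8, while the libraries of Snhg3 and Snhg12 overlap across times.

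That range passed the 24 h test by a narrow margin (edgeR quasi-likelihood test, Benjamini-Hochberg adjusted p = 0.0467), so 1 of the 3 hosts with a row was called, against 12% of all tested genes. The call turns on single libraries: it was kept when ZT22 replicate 1, ZT18 replicate 2 or ZT06 replicate 1 was left out and lost without each of the other 9 (adjusted p from 0.0671 without ZT10 replicate 1 to 0.128 without ZT10 replicate 2, with 0.102 without ZT02 replicate 1, 0.0754 without ZT02 replicate 2, 0.0711 without ZT06 replicate 2, 0.0732 and 0.0959 without ZT14 replicates 1 and 2, 0.0720 without ZT18 replicate 1 and 0.0746 without ZT22 replicate 2). The fitted range stayed between 1.32-fold and 1.44-fold in these fits. With the replicate number as a block the adjusted p was 0.0561. It was 0.0649 when ZT02 replicate 2 and ZT06 replicate 1 were both left out, and 0.139 when their partners were.

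Night and day means of Gas5 were nearly equal, at 54.4 ± 8.79 and 55.4 ± 8.55 CPM (SD, n = 6 each), since ZT10 and ZT14 fall on either side of that division. The log2 difference of night minus day was -0.03 ± 0.07 (SE; edgeR adjusted p = 0.826), and that of ZT14 minus ZT10 was -0.01 ± 0.12 (adjusted p = 0.981). The test of any difference among the 6 times gave an adjusted p of 0.0758 for Gas5.

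Snhg3 varied more between the libraries of a time point than between times. Its level was 181 and 204 CPM at ZT02, 180 and 256 at ZT06, 267 and 235 at ZT10, 294 and 198 at ZT14, then 227 and 235 at ZT18, and 216 and 242 at ZT22. The highest and the third lowest of its values were both at ZT14, and the lowest was at ZT06. Its fitted range was 1.24-fold (0.943 to 1.61, edgeR adjusted p = 0.330), with night at 235 ± 32.6 and day at 221 ± 38.0 CPM (SD, n = 6; log2 difference 0.10 ± 0.12 SE, adjusted p = 0.619).

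Snhg12 had its highest means at ZT10 and ZT14, as Gas5 did, but its libraries overlapped across times. Its level was 7.28 and 10.1 CPM at ZT02, 8.76 and 12.2 at ZT06, 12.2 and 11.3 at ZT10, 13.2 and 10.9 at ZT14, then 9.32 and 8.84 at ZT18, and 10.2 and 10.03 at ZT22. The means were highest at ZT14 (12.0 ± 1.64 CPM) and ZT10 (11.8 ± 0.649), but ZT06 replicate 2 was as high. The fitted range was 1.31-fold (1.01 to 1.73) with a peak at ZT 11.6, and it did not pass (edgeR adjusted p = 0.201). The interval is approximate and is no test of a rhythm, and the unadjusted p of the 24 h test in edgeR was 0.0762. Its counts, 317 to 492 per library, are the smallest of the 3 hosts. The night minus day difference was 0.02 ± 0.11 on the log2 scale (adjusted p = 0.945).

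No host passed the test of any time difference (0 of 3 in edgeR against 4.82% of all genes; 1 of 3 at an unadjusted p under 0.05, 1 in DESeq2, 0 in limma-voom). None passed night minus day (0 of 3 against 9.7%, 4.8% higher and 4.89% lower at night; 0 at an unadjusted p under 0.05 and 0 in DESeq2 and limma-voom). For ZT14 minus ZT10 the count was also 0 of 3, against 1.23% (0.723% higher and 0.508% lower at ZT14), with 0 at an unadjusted p under 0.05 and 0 in the other tools.

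Across the 12 libraries, Snhg12 correlated with Gas5 (r = 0.75, log2 CPM) and with Snhg3 (r = 0.78), and Gas5 with Snhg3 at 0.38. These points share libraries and scaling and are given as a description. Among 8961 other genes of at least 5 CPM, the patterns most like Gas5 were those of Ubap2l (r = 0.954), Nup98, a nuclear pore protein gene (0.954), and Ets1, a transcription factor gene (0.943). For Snhg3 they were Arpc4 (0.878), Bad, a regulator of cell death (0.877), and Polr1c, a subunit shared by RNA polymerases I and III (0.877). For Snhg12 they were Pllp (0.930), Pkd1 (0.903) and Thap11 (0.898). In edgeR, Thap11 alone of these 9 genes passed the 24 h test (1.47-fold, adjusted p = 0.0352), and it lost the call without ZT02 replicate 1, ZT10 replicate 2, either library of ZT14, either library of ZT18 or ZT22 replicate 1 (adjusted p 0.0514 to 0.0956). DESeq2 also called Ets1 (adjusted p = 0.0423), Pllp (0.0381) and Pkd1 (0.0260), and edgeR called Pkd1 without ZT22 replicate 2 (0.0425).

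Summed lymphocyte markers were 2.66 to 7.42 CPM in the 4 libraries of ZT10 and ZT14 and 5.67 to 8.86 CPM in the other 8, over all 10 of 10 listed genes. The libraries of ZT14 (2.66 and 3.71 CPM) and ZT10 replicate 1 (5.02) were below those 8, and only ZT10 replicate 2 (7.42) was not. Kupffer cell markers (7 of 7) were at 245 to 347 CPM against 288 to 451, and sinusoidal endothelial markers (6 of 6) at 429 to 499 against 419 to 562. Stellate cell and fibroblast markers (6 of 6) were at 371 to 447 against 404 to 504 CPM, cholangiocyte markers (5 of 5) at 38.4 to 57.8 against 35.4 to 69.9, and erythroid markers (6 of 6) at 120 to 326 against 117 to 379. The other lists overlapped between these groups, and the part of these cell types in the Gas5 level was not tested.

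A host row counts reads over annotated exons, and in GENCODE M21 retained-intron transcripts put the snoRNAs inside those exons. All 24 annotated snoRNA genes of the other 4 hosts lie wholly within exons of their host. In Snhg3 the exons cover 77.6% of Snora73a and none of Snora73b. The annotation and strand setting behind the counts are not known from the sources, so reads that the host row and the snoRNA rows share cannot be told apart. Reads on a snoRNA row can come from the mature snoRNA or from the unspliced precursor.

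The counts of the inner snoRNA rows came close to those of the host row. For Snhg3 they amounted to 84.8% to 91.0% of the host counts (median 89.2%), and for Snhg12 to 53.0% to 83.6% (median 68.2%). For Gas5 the 9 snoRNA rows summed to 83.2% to 105% of the host counts (median 94.5%) and exceeded them in 2 libraries, so they were not simply a part of that row. Gas5's share was lowest in the libraries of ZT14, at 86.5% and 83.2%, and those of Snhg12 were highest at ZT18, at 78.9% and 83.6%. How many reads the rows share was not tested.

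**Figure D2:**
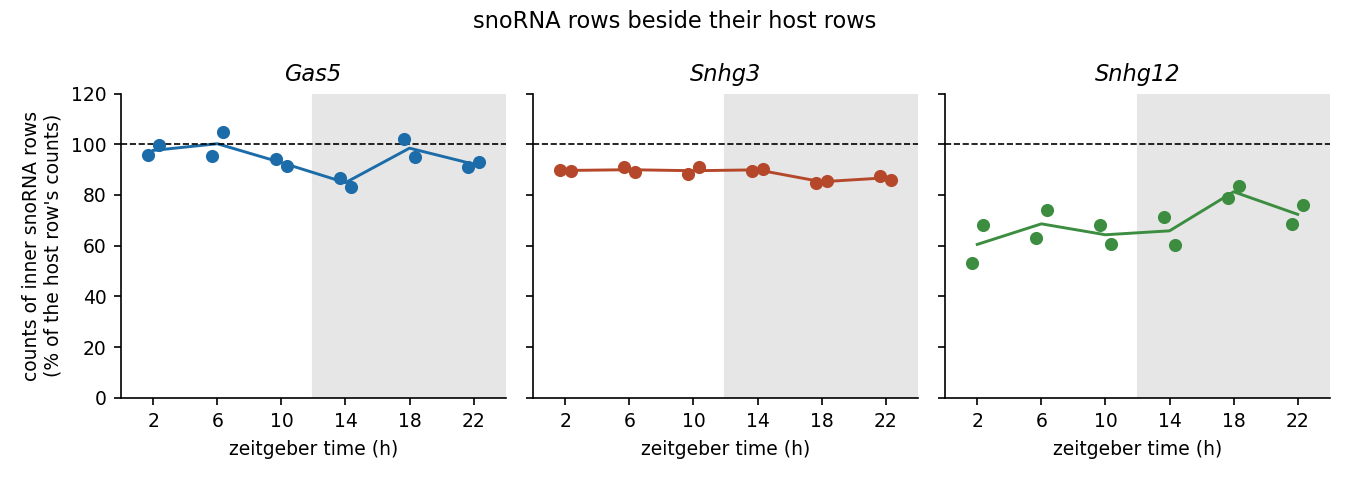
Summed counts of the snoRNA rows inside each host as a percentage of the host row's counts (y axis, starting at 0) against zeitgeber time in hours (x axis); points are libraries, lines join means of 2 and the dashed line is 100%. Snhg3 stays at 84.8% to 91.0%, Gas5 passes 100% in 2 libraries, and Snhg12 is lowest at ZT02 (53.0%) and highest at ZT18 (83.6%).

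Rcc1, which encodes the nucleotide exchange factor of the GTPase Ran, is listed beside Snhg3 with nearly the same numbers. Its counts were 7292 to 11172 per library, 1.02 to 1.03 times those of Snhg3, and exceeded them by 138 to 265 counts. The Rcc1 row therefore gives no separate reading of the protein-coding gene, and its 24 h test (1.24-fold, edgeR adjusted p = 0.326) repeats that of Snhg3. The antisense gene Gm17300, which shares 705 exon bases with Snhg3, was at 2.53 ± 0.944 CPM (SD, n = 12; adjusted p = 0.364). Other copies of the SNORA73 family have rows too; the one inside Rpsa had 1683 to 2432 counts, and reads could be split among such copies.

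Taking the snoRNA counts away from the host counts, a step chosen after the values were seen, left 645 to 1316 counts for Snhg3 and 52 to 191 for Snhg12. What was left of Snhg3 was 18.2 and 21.5 CPM at ZT02, 16.1 and 28.4 at ZT06, 31.9 and 21.2 at ZT10, 30.9 and 19.2 at ZT14, then 34.6 and 33.7 at ZT18, and 26.9 and 34.1 at ZT22. The highest values were at ZT18 and in ZT22 replicate 2, later than the maximum of the whole row. Its fitted range was 1.51-fold with a peak at ZT 17.5, and it did not pass the 24 h test (edgeR adjusted p = 0.209). For the whole row, which did not pass either, the peak was at ZT 13.6 ± 2.17 h (SE). Whether the peaks differ was not tested. Night minus day of the remainder was 0.38 (log2, edgeR adjusted p = 0.173). The counts taken away include those of Snora73b, which lies outside the annotated Snhg3 exons.

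What was left of Snhg12 was lowest at ZT18. There it was 1.97 and 1.45 CPM, against 3.42 and 3.25 at ZT02, 3.22 and 3.18 at ZT06, 3.91 and 4.46 at ZT10, 3.78 and 4.31 at ZT14, and 3.22 and 2.39 at ZT22. The libraries of ZT18 were below the other 10, a separation picked after the values were seen. How many of all genes show the same was not counted. This remainder passed the test of any time difference (edgeR adjusted p = 0.0434). It did not pass the 24 h test (1.75-fold, adjusted p = 0.136) or night minus day (log2 difference -0.40, adjusted p = 0.0683). Its fitted peak was at ZT 8.62, against ZT 11.6 for the whole row, which did not pass the 24 h test either. Fits that leave out a library were not run on these remainders. A difference of 2 counts has the counting error of both, and the shared reads are assumed, not known, to be counted in the host row.

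**Figure D3:**
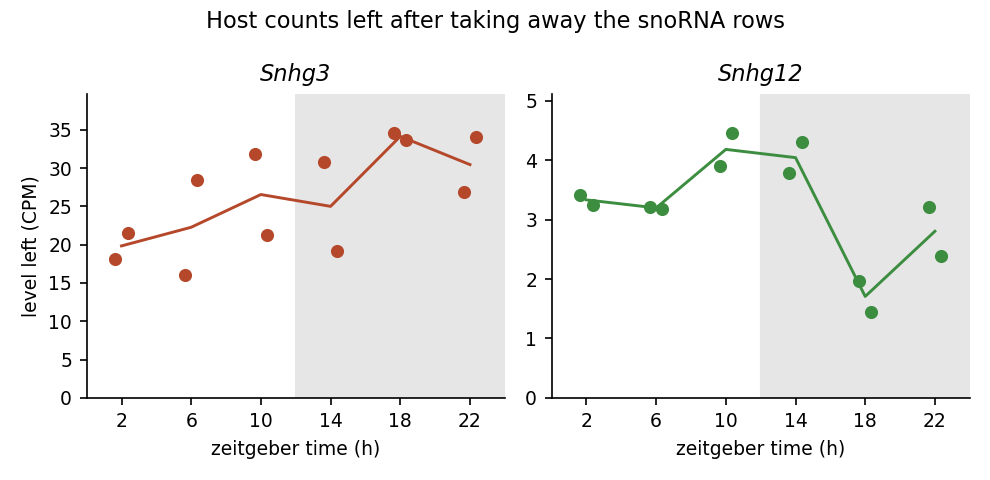
Level of Snhg3 and Snhg12 in CPM (y axes, starting at 0) after the counts of their inner snoRNA rows were taken away, against zeitgeber time in hours (x axis); points are libraries and lines join means of 2. Snhg3 reaches 34.6 and 33.7 CPM at ZT18, while Snhg12 is at its lowest there, 1.97 and 1.45 CPM.

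The snoRNA rows themselves gave 3 calls in the 24 h test among 24 (12.5%, edgeR), close to the 12% of all genes, against 12 of 291 (4.12%) for all other snoRNA rows of the table. Snord47 in Gas5 was at 5.12 and 5.24 CPM at ZT02, 5.22 and 7.08 at ZT06, 6.59 and 6.65 at ZT10, 4.91 and 6.32 at ZT14, then 4.47 and 3.78 at ZT18, and 4.90 and 4.31 at ZT22. Its fitted range was 1.55-fold (1.25 to 1.92) with a peak at ZT 8.40 (adjusted p = 0.0362). Its mean was highest at ZT10 and lowest at ZT18. The highest single library was ZT06 replicate 2, and ZT22 replicate 2 was below ZT18 replicate 1.

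SNORD81, at the 3′ end of Gas5, was at 2.46 and 1.57 CPM at ZT02, 3.35 and 3.74 at ZT06, 3.49 and 3.41 at ZT10, 2.63 and 3.48 at ZT14, then 2.55 and 1.95 at ZT18, and 1.96 and 2.34 at ZT22. All 4 libraries of ZT06 and ZT10 were above those of ZT02, ZT18 and ZT22, a grouping chosen after the values were seen. It leaves out ZT14, and how many of all genes show it was not counted. The range was 1.83-fold (1.31 to 2.55) with a peak at ZT 9.78 (adjusted p = 0.0374).

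SNORD30 in Snhg1 had the widest range of the 24 and few counts, 4 to 31 per library. It was at 0.391 and 0.427 CPM at ZT02, 0.449 and 0.478 at ZT06, 0.777 and 0.607 at ZT10, 0.376 and 0.413 at ZT14, then 0.184 and 0.223 at ZT18, and 0.105 and 0.286 at ZT22. The fitted range was 3.28-fold (1.91 to 4.66) with a peak at ZT 8.43 (edgeR adjusted p = 0.0225). Night was lower than day for SNORD30 (0.264 ± 0.117 against 0.521 ± 0.145 CPM, SD, n = 6; log2 difference -1.01 ± 0.26 SE, adjusted p = 0.0351). It was the only one of the 24 rows called lower at night in edgeR, as were 4.89% of all genes, and DESeq2 did not make the call. The median night minus day difference over the 24 rows was -0.17 (log2).

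Each of these 3 calls depends on single libraries. Snord47 kept it without ZT06 replicate 1, ZT14 replicate 1, ZT14 replicate 2 or ZT22 replicate 1 and lost it without each of the other 8 (adjusted p 0.0540 to 0.0834). SNORD81 kept it without ZT02 replicate 2, ZT14 replicate 1 or ZT22 replicate 2 and lost it without each of the other 9 (0.0520 to 0.0774). SNORD30 lost it without ZT10 replicate 1, ZT10 replicate 2, ZT18 replicate 1 or ZT18 replicate 2 (0.0534 to 0.0589).

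The other 7 snoRNA rows of Gas5 did not pass, with fitted ranges of 1.12-fold for SNORD75 to 1.39-fold for SNORD44. SNORD44 passed only without ZT06 replicate 1 (edgeR adjusted p = 0.0343). All 9 rows of Gas5 had their fitted peak between ZT8 and ZT16, from ZT 8.40 for Snord47 to ZT 15.4 for SNORD74. Over the 24 rows of the 5 hosts this held for 20 (83.3%), against 51.5% of the 291 other snoRNA rows and 32.5% of all tested genes. The same window held the peaks of 82.4% of protein-coding hosts, 73.3% of nonsense-mediated decay factors and 68.8% of TOP genes. For ribosomal protein genes it was 68.4%, for other non-coding hosts 66.7% and for proteins that form or assemble snoRNA particles 65.0%. The window was not one of the planned comparisons. Only 3 of the 24 rows passed the 24 h test, and for snR56 the SE of the peak was 8.21 h. Rows of 1 host share a precursor and are not independent of each other. The levels per kilobase within Gas5 ran from 22.9 CPM for SNORD74 to 126 for SNORD75, a spread of single rows that come from 1 precursor. These rows are 60 to 84 bases long, shorter than a read of 100 cycles, so the values per kilobase are not read densities. Without length, the means were 1.84 CPM for SNORD74 and 7.80 for SNORD75.

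In Snhg1, Snord22 (U22, which acts in small-subunit ribosomal RNA processing) held most of the counts, 179 to 414 per library. It was at 5.33 and 5.10 CPM at ZT02, 6.47 and 7.70 at ZT06, 10.4 and 7.82 at ZT10, 9.90 and 5.94 at ZT14, then 6.57 and 6.84 at ZT18, and 6.62 and 6.65 at ZT22. Its range was 1.52-fold (1.08 to 2.05) with a peak at ZT 12.0 and did not pass (edgeR adjusted p = 0.0988), except without ZT14 replicate 2 (0.0363). The other 7 box C/D rows of Snhg1 were below 1 CPM on average, from 0.214 CPM for snR56 to 0.954 for SNORD26. Summed over its 8 rows, Snhg1 was at 9.003 and 8.80 CPM at ZT02, 9.64 and 11.9 at ZT06, 15.2 and 13.3 at ZT10, 13.7 and 10.4 at ZT14, then 9.22 and 9.37 at ZT18, and 9.90 and 10 at ZT22. How this sum relates to the host RNA was not tested. It was highest in the 2 libraries of ZT10 and in ZT14 replicate 1.

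**Figure D4:**
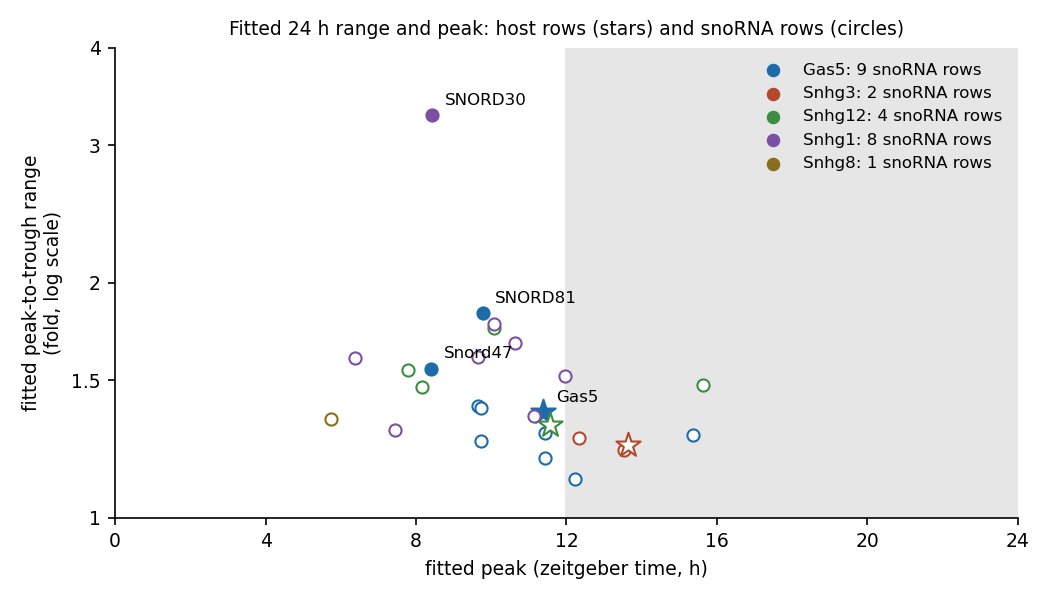
Fitted peak time (x axis, zeitgeber time in hours) and fitted peak-to-trough range (y axis, fold on a log scale) of the 24 snoRNA rows (circles) and the 3 host rows (stars), coloured by host and filled where the 24 h test was passed. SNORD30 (3.28-fold), SNORD81 (1.83-fold), Snord47 (1.55-fold) and Gas5 itself (1.37-fold) are filled, and 20 of the 24 circles lie between ZT8 and ZT16.

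Snora24, the single snoRNA of Snhg8, is an H/ACA snoRNA, the class that guides pseudouridylation. It was at 1.86 and 1.91 CPM at ZT02, 1.45 and 2.02 at ZT06, 2.21 and 2.10 at ZT10, 1.48 and 1.72 at ZT14, then 1.34 and 1.22 at ZT18, and 1.68 and 2.13 at ZT22, and did not pass (1.34-fold, edgeR adjusted p = 0.392). The libraries of ZT18 were the lowest, which was picked out after the values were seen, and how many genes show this was not counted. In Snhg12, Snora44 held most counts, at 4.85 ± 1.43 CPM (SD, n = 12), and ranged from 1.95 CPM in ZT02 replicate 1 to 6.98 in ZT14 replicate 1. None of the 4 Snhg12 rows passed (ranges 1.47-fold to 1.75-fold; 0 of 4 in edgeR, DESeq2 and limma-voom, 1 of 4 at an unadjusted p under 0.05). Snora73a and Snora73b were at 116 ± 16.0 and 85.7 ± 14.8 CPM and did not pass (1.27-fold, adjusted p = 0.170, and 1.22-fold, adjusted p = 0.444).

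Both libraries of ZT10 were above the other 10 for 6 of the 24 snoRNA rows (25%): SNORD44, snR56, SNORD29, SNORD30, SNORD31 and Snora61. The same held for 4 of the 291 other snoRNA rows (1.37%) and for 5.26% of all tested genes. This count was made after the values were seen, 4 of the 6 rows share the host Snhg1, and those 4 had at most 42 counts in a library. No row of the 24 passed ZT14 minus ZT10 (0 in edgeR, DESeq2 and limma-voom, 1 at an unadjusted p under 0.05) or the test of any time difference (0 in edgeR, DESeq2 and limma-voom, 4 at an unadjusted p under 0.05).

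Of the genes that start head to head with a host, only Slc3a2, the heavy chain of the CD98 amino acid transporter, passed the 24 h test. Slc3a2 did not pass the test of any time difference (edgeR adjusted p = 0.215). It was at 34.6 and 34.1 CPM at ZT10 and 34.5 and 33.2 at ZT14, and the other 8 libraries were between 25.7 and 32.9 CPM. The groups did not overlap (33.2 against 32.9 CPM at the nearest), in the grouping chosen after the Gas5 values were seen and shown by 3.03% of all genes. Its range was 1.28-fold (1.16 to 1.43) with a peak at ZT 12.2 (edgeR adjusted p = 0.0409), and the call was kept only without ZT06 replicate 1, ZT06 replicate 2 or ZT22 replicate 2 when single libraries were dropped (adjusted p 0.0612 to 0.109 without each of the other 9). Zbtb37, beside Gas5, was at 3.51 to 5.93 CPM, highest in ZT06 replicate 2, and did not pass (1.19-fold, adjusted p = 0.528).

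Of 19 other non-coding snoRNA hosts listed, 12 have a row and were tested; 1 passed the 24 h test in edgeR (8.33%, against 12% of all genes), 3 in DESeq2 and 4 at an unadjusted p under 0.05, and the median fitted range was 1.37-fold against 1.31-fold for the 3 members and for all genes. Zfas1, a host of box C/D snoRNAs, had a range of 1.86-fold with a peak at ZT 8.03 (edgeR adjusted p = 0.0181) and was lower at night by a narrow margin (log2 difference -0.48, adjusted p = 0.04997), a call that limma-voom did not make. Dancr (1.97-fold, adjusted p = 0.0579), Snhg15 (2.13-fold, 0.0614), Snhg11 (2.24-fold, 0.220) and Snhg17 (1.30-fold, 0.204), named after their values were seen, did not pass. Snhg15 passed the test of any time difference (adjusted p = 0.0349).

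Among 17 protein-coding snoRNA hosts, 3 passed the 24 h test in edgeR (17.6%, against 12% of all genes), 7 in DESeq2 and 9 at an unadjusted p under 0.05, and the median range was 1.25-fold. Hspa8, which encodes the constitutive HSP70 chaperone and hosts box C/D snoRNAs, had 3.06-fold with a peak at ZT 13.5 (edgeR adjusted p = 0.0150). Nop56, a core protein of box C/D particles whose own introns hold snoRNAs, had 2.14-fold with a peak at ZT 13.3 (adjusted p = 0.00741). Tcp1, a chaperonin subunit gene, had 1.31-fold with a peak at ZT 15.3 (adjusted p = 0.0314); it lost the call without either library of ZT02 or ZT14, ZT06 replicate 2, ZT10 replicate 2 or ZT18 replicate 2 (adjusted p 0.0530 to 0.0792). The list holds Rcc1, whose row repeats Snhg3.

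Of 20 proteins that form or assemble snoRNA particles, 3 passed (15%, against 12% of all genes; 5 in DESeq2), and the median range was 1.23-fold. Nolc1, a nucleolar chaperone of snoRNA particles, had a range of 2.35-fold with a peak at ZT 14.3 (edgeR adjusted p = 0.00375) and was higher at night (log2 difference 0.51, adjusted p = 0.0107). Nop56 is the second, and Nhp2l1, the protein that nucleates box C/D particles, had 1.42-fold with a peak at ZT 14.8 (adjusted p = 0.0274). Nhp2l1 lost the call without ZT02 replicate 1, ZT02 replicate 2, ZT14 replicate 1, ZT14 replicate 2 or ZT18 replicate 2 (0.0535 to 0.0726), while Nolc1 and Nop56 kept theirs in every fit run.

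Of 15 nonsense-mediated decay and exon junction factors, 3 passed (20%, against 12% of all genes; 3 in DESeq2), with peaks at different times, and the median range was 1.20-fold. Smg6, the endonuclease of the pathway, had 1.46-fold with a peak at ZT 7.14 (edgeR adjusted p = 0.00504) and was lower at night (log2 difference -0.35, adjusted p = 0.00778). Upf1, its helicase, had 1.31-fold with a peak at ZT 16.6 (adjusted p = 0.0323), and Rbm8a, a core exon junction protein, had 1.39-fold with a peak at ZT 13.8 (adjusted p = 0.0196). Upf1 lost its call without either library of ZT02, ZT14 or ZT18, ZT06 replicate 2 or ZT22 replicate 1 (0.0512 to 0.0878). Rbm8a lost it without ZT02 replicate 1, ZT14 replicate 1 or ZT14 replicate 2 (0.0512 to 0.0583).

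The TOP-type genes had the smallest median ranges of the lists. Abundance was not matched between the lists, and counting noise widens the fitted range of rows with few counts. Of 16 translation factors and other TOP genes, 2 passed (12.5%, against 12% of all genes; 4 in DESeq2), and the median range was 1.16-fold. They were Eif4b and Eef1g. Eif4b, a cofactor of the RNA helicase of translation initiation, had 1.5-fold with a peak at ZT 8.01 (edgeR adjusted p = 0.0277). Eef1g, an elongation factor subunit, had 1.32-fold with a peak at ZT 17.4 (adjusted p = 0.0184). Eif4b lost the call without ZT06 replicate 2, ZT10 replicate 2, ZT18 replicate 1 or ZT18 replicate 2 (0.0616 to 0.0706) and Eef1g without ZT06 replicate 2 (0.0524). Of 79 cytosolic ribosomal protein genes none passed (0 in edgeR, DESeq2 and limma-voom; 2 at an unadjusted p under 0.05), with a median range of 1.12-fold and a highest of 1.28-fold. The most abundant of them, Rpl4 and Rps2, had ranges of 1.06-fold and 1.01-fold.

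**Figure D5:**
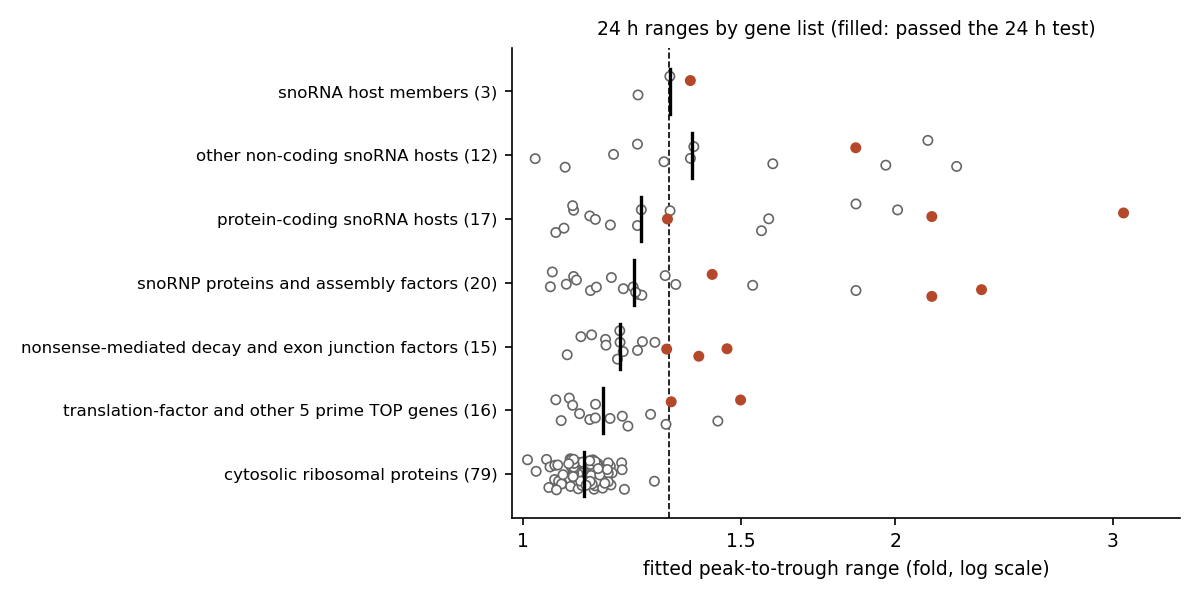
Fitted peak-to-trough range of the 24 h fit (x axis, fold on a log scale) for each tested gene of 7 lists, with the number of genes in brackets; filled points passed the 24 h test, bars are list medians and the dashed line is the median of all 17142 genes (1.31-fold). The 79 ribosomal protein genes stay at or below 1.28-fold with none filled, while the 3 hosts lie between 1.24-fold and 1.37-fold.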

How the data were processed

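Exon counts for 12 liver libraries were deposited by the authors as 1 table of whole, unnormalized numbers. Per the labels' protocols, libraries were stranded, rRNA-depleted and read paired-end for 100 cycles. The submitters' processing notes name STAR 2.4.0i and mm10; which tool, strand setting and annotation produced the counts is not given in the sources used here. GENCODE M21 gave positions for 22054 of 22618 rows by identifier, and RefSeq gave start regions.

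Tests on these counts used edgeR 4.0.16 (R 4.3.3) with a filterByExpr minimum count of 10 and total of 15 within time points, TMM factors, quasi-likelihood tests and Benjamini-Hochberg adjustment over all 17142 tested genes, called under 0.05. The 24 h test fits a cosine and a sine. The interval of the range and the peak SE come from least squares on log2 CPM (prior count 2, 9 residual degrees of freedom). That interval is approximate: it treats the range as free to fall below 1, and it is no test of a rhythm. Other tests compare any times, night with day, and ZT14 with ZT10. Scripts were tested on simulated data with changes added to genes drawn from all those tested. Of changes of 1.5-fold, the 24 h test recovered 23.4% and night minus day 47%. The test of any time difference and ZT14 minus ZT10 each recovered 0%. A host that did not pass is therefore not shown to be constant. Alternatives were RLE factors, total counts, DESeq2 1.42.0, limma-voom (limma 3.58.1), 2 other filters, a replicate block and fits without 1 or 2 libraries.

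Partner libraries differed by more than counting noise (16.8 at ZT18 to 100 at ZT10, as chi-square over its degrees of freedom) and were counted separately; preparation alone could give such a spread. A count of 0 allows 0.0651 to 0.0864 CPM (3 counts), for counting error only. Members and lists were chosen with earlier results of these data known. Named genes were the members, up to 4 called genes per list or its 2 most abundant, head-to-head and overlapping neighbours, inner snoRNA rows and the 3 most correlated genes per member; genes named otherwise are said to be.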

Additional observations from a re-analysis of the deposited data

Results flagged for a closer look

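In ZT14 replicate 1, Snord22 was at 9.90 CPM, while the other 5 night libraries were between 5.94 and 6.84 CPM. Snora73a was at 145 CPM in the same library, against 106 to 114.9 CPM in the other 5 night libraries. Each value was set apart from its group by a gap of 0.772 and 0.777 of the range, above Dixon's 95% critical value for 6 values. Of 54 groups of 6 values examined, 2 stood out in this way, and chance gives about 1 in 20. The same library held the highest levels of the host rows Snhg3 and Snhg12.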

How the results depend on the processing

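The 24 h test called 2051 genes in edgeR and 3378 in DESeq2. It called 1276 without ZT02 replicate 2 and ZT06 replicate 1, and 568 without ZT02 replicate 1 and ZT06 replicate 2. The range without 1 library was 1201 to 2225. Of the 3 hosts 1 was called; 0 were called with RLE factors, limma-voom, no filter, the replicate block or either pair left out, and 0 to 1 without 1 library. Gas5's adjusted p over all alternatives was 0.0164 to 0.139. Any time difference gave 826 genes, 2524 in DESeq2 and 174 to 897 without 1 library. Night minus day gave 1662, then 865 and 1107 without the same 2 pairs, and 611 to 1818 without 1 library. ZT14 minus ZT10 gave 211, 707 in DESeq2, 338 at a mean of at least 5 CPM, and 3 to 391 without 1 library. The cause of these shifts was not tested.

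Differences near 0 changed sign. Night minus day of Gas5 (log2) was 0.00038 with total counts alone and 0.012 without ZT02 replicate 1 and ZT06 replicate 2. Without 1 library it was -0.072 to 0.016 for Gas5, -0.0035 to 0.19 for Snhg3 and -0.058 to 0.10 for Snhg12. Unfiltered, Snhg12 was at -0.0021. After the snoRNA counts were taken away, Snhg3 was at 0.38 and Snhg12 at -0.40. ZT14 minus ZT10 ran from -0.097 to 0.071 for Gas5, from -0.34 to 0.22 for Snhg3 and from -0.11 to 0.16 for Snhg12, which was at -0.048 after the same step. No named gene moved its fitted peak by over 6 h while called. With that pair (ZT02 replicate 1, ZT06 replicate 2) left out, every named 24 h call was lost except those of Nolc1, Nop56 and Smg6. Without the other pair (ZT02 replicate 2, ZT06 replicate 1), the lost calls were those of Gas5, SNORD81, Slc3a2, Thap11, Tcp1, Nhp2l1, Upf1 and Eef1g.

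Pairing by replicate number was not taken as given: same-numbered deviations correlated at -0.22 to 0.50 over 15 pairs of times, with 5 over 0.1, although same-numbered libraries of ZT02 and ZT06 were alike (r = 0.47 and 0.59). With the replicate block 1896, 774, 1609 and 215 genes were called in the 4 tests; Gas5 lost its 24 h call (adjusted p = 0.0561) and Pkd1 gained one (0.0446). Low counts limit the Snhg1, Snhg8 and Snhg12 rows.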
